A study of Homo sapiens with 6 samples.

Results

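The Iroquois homeobox genes (IRX1, IRX2, IRX3, IRX4, IRX5 and IRX6) were followed in RNA-seq of cells labelled G361, a human melanoma line, with and without depletion of VprBP, the product of DCAF1. The family was taken by gene name and was chosen by the value of IRX5 in this comparison, which went from 0 counts to high expression. The levels and calls of its members are therefore a description, with no test. Of the 6 members, 4 had a row among the 21494 genes of the table analysed, in which each row sums to at least 10 over the samples. IRX1 and IRX4 had no row, so no value is given for them.

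Iroquois proteins are transcription factors of the TALE class, homeodomain proteins whose homeodomain carries an inserted loop of a few residues. They act largely in embryonic patterning, of the neural tube, limbs, heart and face among other tissues, and they often repress their targets. In mammals the genes lie in a pair of clusters that arose by duplication, each with 3 genes, and members of a cluster are commonly expressed in overlapping domains under shared enhancers.

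Control sh cells (3 samples) expressed a control shRNA and VprBP sh cells (3 samples) an shRNA against the VprBP coding sequence. The cells were infected with lentivirus, selected with puromycin and otherwise left untreated. Only 1 shRNA sequence against VprBP is given in the methods, and nothing says that the samples of a group are separate infections or cultures, so the errors below may be technical. In the labels the cell line is G361 while the source is LD611. Whether both groups derive from the same line was not tested, and a difference of line and the depletion cannot be told apart in the ratios below.

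Total counts per sample ran from 18195949 to 26883948. DCAF1 counts were 688, 893 and 884 in the Control sh replicates and 681, 488 and 628 in those of VprBP sh, which the quasi-likelihood test of edgeR put at -0.58 on the log2 scale (SE 0.17, adjusted p = 0.0125). With library size as the only scaling it was -0.37 (edgeR adjusted p = 0.0851). Its normalized counts were 797, 971 and 838 in Control sh and 760, 507 and 481 in VprBP sh. An exact permutation test of these gave p = 0.1, the smallest possible with 20 splits. A gene is called below where its difference exceeds 2-fold with a p, adjusted by Benjamini-Hochberg, under 0.05, which 46.4% of the 16756 genes tested passed. DCAF1 did not reach 2-fold and was not called under any of 5 scalings. As shares of the genes tested, 24.5% were called higher and 22.0% lower in VprBP sh. Replicates 2 and 3 of each group lay closer to each other than to replicate 1. Markers of the labelled cell type were low or without a row in all samples. Of 7 genes of the melanocyte lineage, SOX10, TYR and DCT had no row, MLANA had 1 to 5 counts, TYRP1 0 to 4 counts, PMEL 28 to 46 counts and MITF 154 to 312 counts. The summed normalized counts of 8 urothelial markers ran from 103556 to 113341 in Control sh and from 22633 to 26433 in VprBP sh, and those of 8 mammary luminal markers from 56571 to 63050 and from 99175 to 130856. Keratins made up most of these sums. KRT5 and KRT7 had means of 64989 and 35085 normalized counts in Control sh and 3488 and 21576 in VprBP sh, and KRT8, KRT18 and KRT19 dominated the mammary luminal sums. Of the urothelial markers, UPK3A and KRT20 had no row, UPK1B was at 0 in each VprBP sh sample and 4 were called, all lower in VprBP sh. Of the mammary luminal markers, TFF1 and ANKRD30A had no row, SCGB2A2 was at 0 in each Control sh sample, PGR at 0 in each VprBP sh sample, and 3 were called higher and 1 lower. Of the 3, KRT8 and KRT19 were not called with TMM factors or in DESeq2, and KRT19 also not in limma-voom. The part of these marker differences in the results below was not tested. In bulk RNA, fewer cells of a type and less RNA per cell cannot be told apart.

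All 4 Iroquois genes with a row were higher in each VprBP sh sample than in any Control sh sample. IRX5 and IRX2 were at 0 in every Control sh sample, IRX6 was at 1 count in a single one, and IRX3 was the only member with a measurable level in Control sh. In VprBP sh the lowest value of any of the 4 was 1340 normalized counts. All 4 passed the filter on low counts and were called as higher, beside 24.5% of all genes tested. All 4 also showed no overlap between the groups, beside 79.5% of all genes tested in either direction and 42.2% in the direction of higher values in VprBP sh. Since the family was selected on this comparison, nothing is read from these counts.

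The genomic layout of the members is shown first, because the neighbouring rows described below are placed relative to them. On hg38, IRX2 (ENSG00000170561.13) spans bases 2745845 to 2751677 of chromosome 5, minus strand. IRX3 (ENSG00000177508.12) spans bases 54283304 to 54286787 of chromosome 16, minus strand. On the plus strand of the same chromosome, IRX5 (ENSG00000176842.16) spans 54930865 to 54934485 and IRX6 (ENSG00000159387.8) 55324203 to 55330756. Their canonical transcripts in GENCODE 44 have 4 exons for IRX2, 4 for IRX3, 3 for IRX5 and 6 for IRX6. IRX2 and IRX5 each have a long noncoding RNA gene that starts beside them on the opposite strand. C5orf38, which RefSeq names IRX2-DT, starts 454 bases from IRX2 in the table, and CRNDE, a long noncoding RNA known from colorectal tumours, starts 1676 bases from IRX5.

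The RefSeq promoter table (build GRCh38.p14, 250 bases before to 50 bases after a start) matched 3 of the 6 members, IRX1, IRX2 and IRX4, and also CRNDE and IRX2-DT. The stretches of IRX2 and CRNDE are printed because both genes were near 0 in Control sh and high in VprBP sh, and the stretch of IRX2-DT is not, since it shares 285 bases with that of IRX2. In RefSeq the start of IRX2-DT lies 216 bases from that of IRX2, at base 35 of the IRX2 stretch, so that this stretch spans the gap between the divergent starts. Capitals mark CpG dinucleotides, the sites of DNA methylation in mammals. The IRX2 stretch is chr5:2751628-2751927 and the CRNDE stretch chr16:54928837-54929136, both read 5′ to 3′ on the minus strand.
IRX2: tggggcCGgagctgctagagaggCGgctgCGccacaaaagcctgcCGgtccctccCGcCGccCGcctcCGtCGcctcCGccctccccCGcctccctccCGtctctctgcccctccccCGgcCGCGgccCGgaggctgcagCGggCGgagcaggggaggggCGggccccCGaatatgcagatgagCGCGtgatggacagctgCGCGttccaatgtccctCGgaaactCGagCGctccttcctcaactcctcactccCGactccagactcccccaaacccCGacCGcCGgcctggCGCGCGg
CRNDE: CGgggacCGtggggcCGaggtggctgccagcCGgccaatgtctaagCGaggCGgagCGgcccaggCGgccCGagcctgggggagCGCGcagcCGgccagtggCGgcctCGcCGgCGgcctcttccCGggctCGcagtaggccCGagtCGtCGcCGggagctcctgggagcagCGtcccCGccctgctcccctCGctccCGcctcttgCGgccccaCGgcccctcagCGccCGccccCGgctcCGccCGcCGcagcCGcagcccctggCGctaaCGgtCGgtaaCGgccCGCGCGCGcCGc

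Both stretches are dense in CpG. The IRX2 stretch has 34 CpG and a GC content of 73.3%, and the CRNDE stretch 44 CpG and a GC content of 80.0%, where the median over 35116 promoter stretches of the same length was 14 CpG. Of all promoter stretches, 84.4% have fewer CpG than that of IRX2 and 95.8% fewer than that of CRNDE. The IRX1 stretch has 38 CpG and the 3 stretches of IRX4 have 36, 47 and 44. The motif ACANNTGT, known as a binding site of Iroquois proteins and read the same on both strands, had 0 matches in the stretches of IRX1, IRX2, IRX4, IRX2-DT and CRNDE, while 5.62% of all promoter stretches hold it.

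IRX3, which in the heart acts in the conduction system and in the hypothalamus and fat is linked to body weight, was the most abundant member. Its counts were 77, 53 and 62 in the Control sh replicates and 4605, 6454 and 8396 in those of VprBP sh. After upper quartile scaling these were 68.5 ± 17.9 (SD, n = 3) and 6095 ± 836 (SD, n = 3) normalized counts, which is 88.9-fold higher in VprBP sh. The fitted log2 ratio was 6.48 (standard error, SE, 0.19). Control sh replicate 1 was the highest of its group and VprBP sh replicate 1 the lowest of its own, and the groups lay far apart.

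IRX5, mutated in a recessive syndrome of face, eye and heart, lies between IRX3 and IRX6. It had 0 counts in each Control sh sample, where 3 counts, the floor used here for detection, would be 2.84 to 3.48 normalized counts. The VprBP sh samples had 2506, 3389 and 4513 counts, or 3260 ± 401 (SD, n = 3) normalized counts. Set against a floor of 3 counts per library, IRX5 was at least 1020-fold higher in VprBP sh. At this depth a level in Control sh below the floor was not detectable.

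IRX6, the last gene of the chromosome 16 cluster, went from 1, 0 and 0 counts in the Control sh replicates to 1479, 2769 and 3913 in those of VprBP sh, or 2509 ± 746 (SD, n = 3) normalized counts. The ratio of its counts between the groups was 7322, with a 95% exact counting interval of 1314 to 289241, which covers counting error only. This ratio rests on the 1 count in Control sh replicate 1, and without that library IRX6 was at 0 in Control sh. IRX6 was the least even member among the VprBP sh samples. Replicate 1 had 1651 normalized counts against a mean of 2938 in replicates 2 and 3, so that the mean of the other two was 1.78 times that of replicate 1.

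IRX2, which is expressed in breast epithelium, limbs and brain, was the only member of the chromosome 5 cluster with a row. It was at 0 in every Control sh replicate, while those of VprBP sh had 1200, 1777 and 2301 counts, or 1650 ± 272 (SD, n = 3) normalized counts. Against the floor of 3 counts per library it was at least 517-fold higher in VprBP sh.

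**Figure D1:**
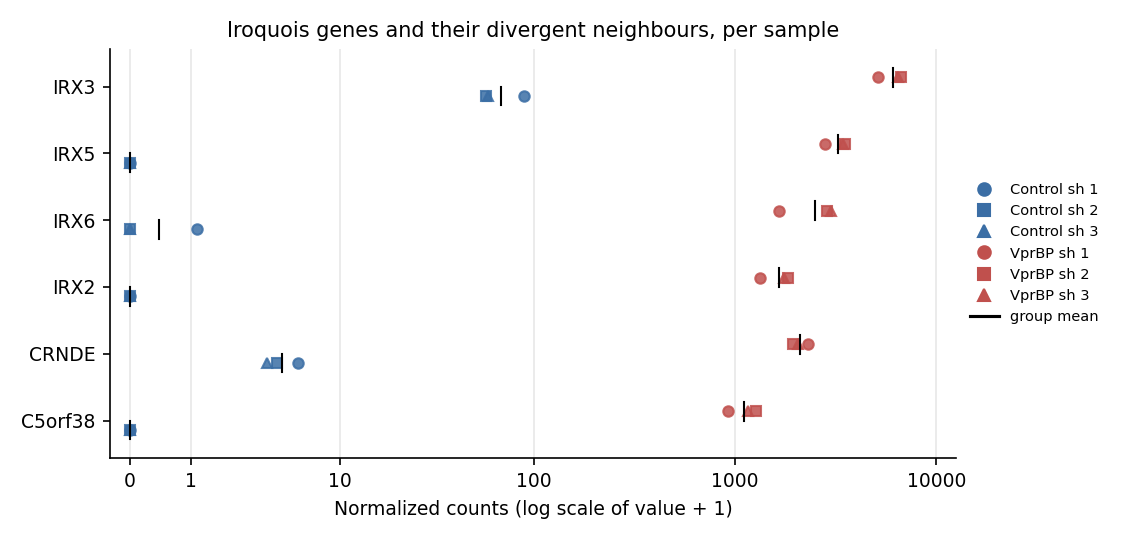
Normalized counts of the 4 Iroquois genes with a row and of CRNDE and C5orf38 in each sample, on a logarithmic axis of the value plus 1, with Control sh in blue, VprBP sh in red, a symbol for each replicate and a black bar for the group mean. IRX5, IRX2 and C5orf38 sit at 0 in the 3 Control sh samples, IRX3 between 57.6 and 89.2, and in VprBP sh all 4 Iroquois genes sit at 1340 or above.

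Summed over the family, Iroquois genes took 3.77, 2.44 and 2.50 CPM in replicates 1, 2 and 3 of Control sh and 538, 730 and 711 CPM in those of VprBP sh. Apart from IRX6, the shares of the members differed little between the VprBP sh samples. IRX3 made up 43.9% to 47.0% of the family's counts, IRX5 23.6% to 25.6%, IRX6 15.1% to 20.5% and IRX2 at most 12.3%.

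Levels of different genes were compared as normalized counts per kb of exon, with the exon lengths of GENCODE 44. In VprBP sh, IRX3 had 2077 ± 285 (SD, n = 3), IRX5 1147 ± 141, IRX6 850 ± 253 and IRX2 485 ± 80.0 normalized counts per kb. The samples of IRX3, from 1752 to 2285, lay above those of IRX5, from 985 to 1239. The samples of IRX5 and IRX6, which ran from 559 to 1016, overlapped, although IRX5 was the higher of the pair within each sample, by 1.76, 1.27 and 1.20 times. IRX2, from 394 to 543, lay below IRX6. On this scale 1.42% of the 21460 genes with a length were above IRX3 in VprBP sh, 3.22% above IRX5, 4.88% above IRX6 and 9.52% above IRX2. In Control sh, IRX3 had 23.4 ± 6.11 (SD, n = 3) normalized counts per kb.

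**Figure D2:**
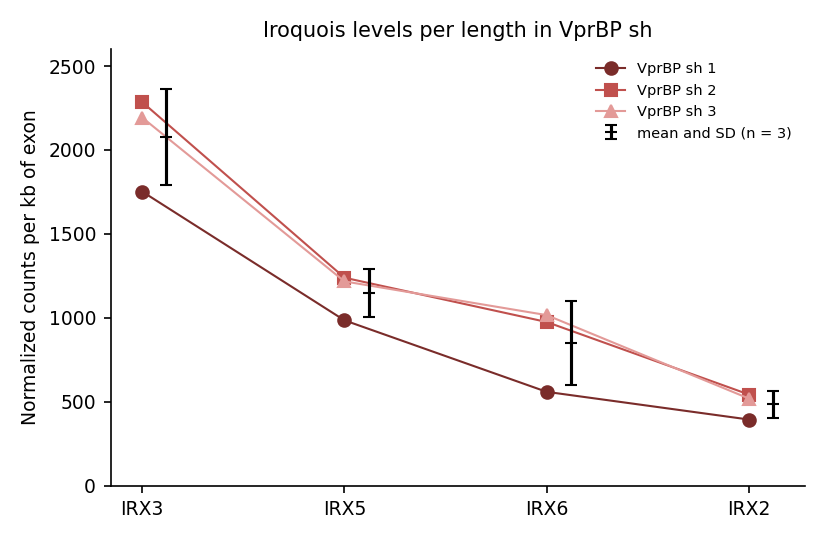
Normalized counts per kb of exon of the 4 Iroquois genes in the VprBP sh samples, with a line and symbol for each replicate and the mean with its SD (n = 3) beside them. IRX3 is the highest and IRX2 the lowest in every sample, and replicate 1 is the lowest sample for each gene, at 559 against 975 and 1016 for IRX6.

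The members shared a feature among the VprBP sh samples. For each of the 4, replicate 1 was the lowest of the group, and the mean of replicates 2 and 3 was 1.25 times that of replicate 1 for IRX5, 1.28 times for IRX3, 1.35 times for IRX2 and 1.78 times for IRX6. The coefficient of variation over the 3 samples was 12.3% for IRX5, 13.7% for IRX3, 16.5% for IRX2 and 29.7% for IRX6, where the median over the 5127 genes tested whose VprBP sh mean reached 1000 normalized counts was 7.70%. The mammary luminal markers went both ways in this respect. Replicate 1 was the lowest for KRT19 (39135, 68595 and 68195 normalized counts), KRT8 (34715, 41063 and 41145) and ESR1 (90.4, 109 and 99.7). It was the highest for SCGB2A2 (6407, 4388 and 4701) and KRT18 (18829, 16494 and 16715). How many of all genes had replicate 1 as the lowest was not counted. The part of this library in the levels was not tested beyond leaving it out. Without VprBP sh replicate 1 the 4 members were called as well, which lends no support, since the family was chosen on this comparison.

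The noncoding neighbours rose beside their Iroquois genes. C5orf38 was at 0 in every Control sh replicate, while those of VprBP sh had 828, 1220 and 1509 counts, or 1116 ± 175 (SD, n = 3) normalized counts, which is at least 349-fold higher. A further row just beyond it, ENSG00000289075, had 0 counts in each Control sh sample and 620, 791 and 1041 counts in VprBP sh. In RefSeq, IRX2-DT runs from 2751893 to 2758578 and covers both rows. Within the VprBP sh samples the ratio of IRX2 to C5orf38 counts was 1.45, 1.46 and 1.52.

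CRNDE counts were 5, 4 and 4 in the Control sh replicates and 2079, 1880 and 2695 in those of VprBP sh. These were 4.65 ± 1.03 (SD, n = 3) and 2114 ± 188 (SD, n = 3) normalized counts, with a fitted log2 ratio of 8.81 (SE 0.18, edgeR adjusted p = 6.35e-10). CRNDE passed the filter on low counts through VprBP sh alone, so it had to differ and nothing is read from this p. The ratio of IRX5 to CRNDE counts was 1.21, 1.80 and 1.67 in VprBP sh replicates 1, 2 and 3, so that CRNDE, unlike IRX5, had its highest normalized value in replicate 1. ENSG00000289307, a short noncoding gene between the starts of CRNDE and IRX5, had 0 counts in each Control sh sample and 37, 74 and 99 counts in VprBP sh.

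Some of these values may depend on how overlapping genes were counted. The row of IRX3 overlaps ENSG00000283689 on the opposite strand by 1184 bases, and that row was at 0 in every Control sh replicate, while those of VprBP sh had 10, 18 and 43 counts. IRX6 lies wholly within ENSG00000259283 on the opposite strand, which was at 0 in every Control sh replicate, while those of VprBP sh had 1, 2 and 8 counts. The methods describe a strand-specific kit and the labels a different kit, and no source used here gives the strand setting of the counting, so reads of such partners may not be told apart.

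Along both clusters, the rows between the outermost Iroquois genes were at or near 0 in Control sh, with IRX3 as the exception. From IRX3 to IRX6, over 1047 kb of chromosome 16, the table has 8 rows, 5 of them not Iroquois genes. Apart from IRX3, none of the 8 exceeded 5 counts in a Control sh sample. Of the 7 rows tested, 7 were called and all were higher in VprBP sh. From IRX4 to IRX1, over 1724 kb of chromosome 5, the table has 3 rows, IRX2, C5orf38 and ENSG00000289075. All 3 were at 0 in Control sh and called as higher in VprBP sh. Apart from IRX3, the rows tested in both stretches had at most 5 counts in a Control sh sample. They passed the filter on low counts through VprBP sh alone, so they had to differ. The members among them were also chosen on this comparison. Nothing is therefore read from these counts, beside 24.5% of all genes tested that were called higher.

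Beyond these stretches, rows within 1 Mb were called in either direction. On the chromosome 16 side, 14 rows outside the stretch were tested, of which 7 were called higher, 3 lower and 4 were not called. Of all genes tested, 24.5% were called higher and 22.0% lower. Among the 14, MMP2 and the pseudogene CES1P1 passed the filter on low counts through a single group, so they had to differ. FTO, a demethylase of RNA whose introns hold enhancers of IRX3 and IRX5, went from 884 ± 97.9 to 2082 ± 96.2 normalized counts (SD, n = 3), with a fitted log2 ratio of 1.24 (SE 0.10, edgeR adjusted p = 2.84e-06). RPGRIP1L, a gene of the ciliary transition zone next to FTO, rose by 1.28 on the log2 scale (SE 0.17, edgeR adjusted p = 7.52e-05). CHD9, a chromatin remodeller at the far end of the window, rose by 1.58 (SE 0.12, edgeR adjusted p = 1.43e-06).

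MMP2, a gelatinase and the nearest protein-coding gene beyond IRX6, went the other way. Its counts were 140, 257 and 311 in the Control sh replicates and 5, 3 and 6 in those of VprBP sh, with a fitted log2 ratio of -5.76 (SE 0.36, edgeR adjusted p = 4.43e-07). MMP2 passed the filter on low counts through Control sh alone, so it had to differ and nothing is read from this p. LPCAT2, an acyltransferase of phospholipids next to MMP2, had 1386 ± 168 and 1267 ± 110 normalized counts (SD, n = 3) with overlapping groups, and was not called. CES1, a carboxylesterase, went from 30, 36 and 39 counts in the Control sh replicates to 517, 1567 and 2153 in those of VprBP sh, with a fitted log2 ratio of 5.12 (SE 0.43, edgeR adjusted p = 3.14e-06). Its VprBP sh replicate 1 was again the lowest, and the mean of replicates 2 and 3 was 2.84 times as high. CES1 has near-identical copies beside it, and its counts are uncertain to that extent.

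On the chromosome 5 side, 11 rows outside the stretch were tested, of which 2 were called higher, 6 lower and 3 were not called. The shares over all genes tested were 24.5% higher and 22.0% lower. The 2 that were higher, SDHAP3 and PDCD6P1, are pseudogenes whose counts may include reads of their parent genes, and PDCD6P1 was not called with TMM factors or in DESeq2. LPCAT1, an acyltransferase of lung surfactant, went from 12189 ± 123 to 1859 ± 32.8 normalized counts (SD, n = 3), with a fitted log2 ratio of -2.71 (SE 0.08, edgeR adjusted p = 2.99e-09). TERT, the catalytic subunit of telomerase, fell from 99.0 ± 20.5 to 29.1 ± 4.84 normalized counts (SD, n = 3; edgeR adjusted p = 0.000142). NDUFS6 and MRPL36, mitochondrial genes that are the nearest protein-coding rows before the stretch, were not called. Over both windows 24 of 31 rows tested other than the members were called. Of the 31, 8 had under 10 counts in every sample of a group and passed the filter on low counts through the other group alone, so that they had to differ. Of the other 23 rows, 16 were called, beside 46.4% of all genes tested, a share that still includes rows that passed through 1 group alone. With at least 10 counts required in every sample, 16 of 23 neighbours and 4690 of 13103 genes were called. Over all 31 rows, the 8 that had to differ included, the median log2 fold change was 1.26 on chromosome 16 and -0.40 on chromosome 5. For all genes tested it was 0.08. Setting the rows at 0 in Control sh to their lower bounds, which lie above these medians, leaves the medians as they are. Medians of the 23 rows alone were not determined.

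**Figure D3:**
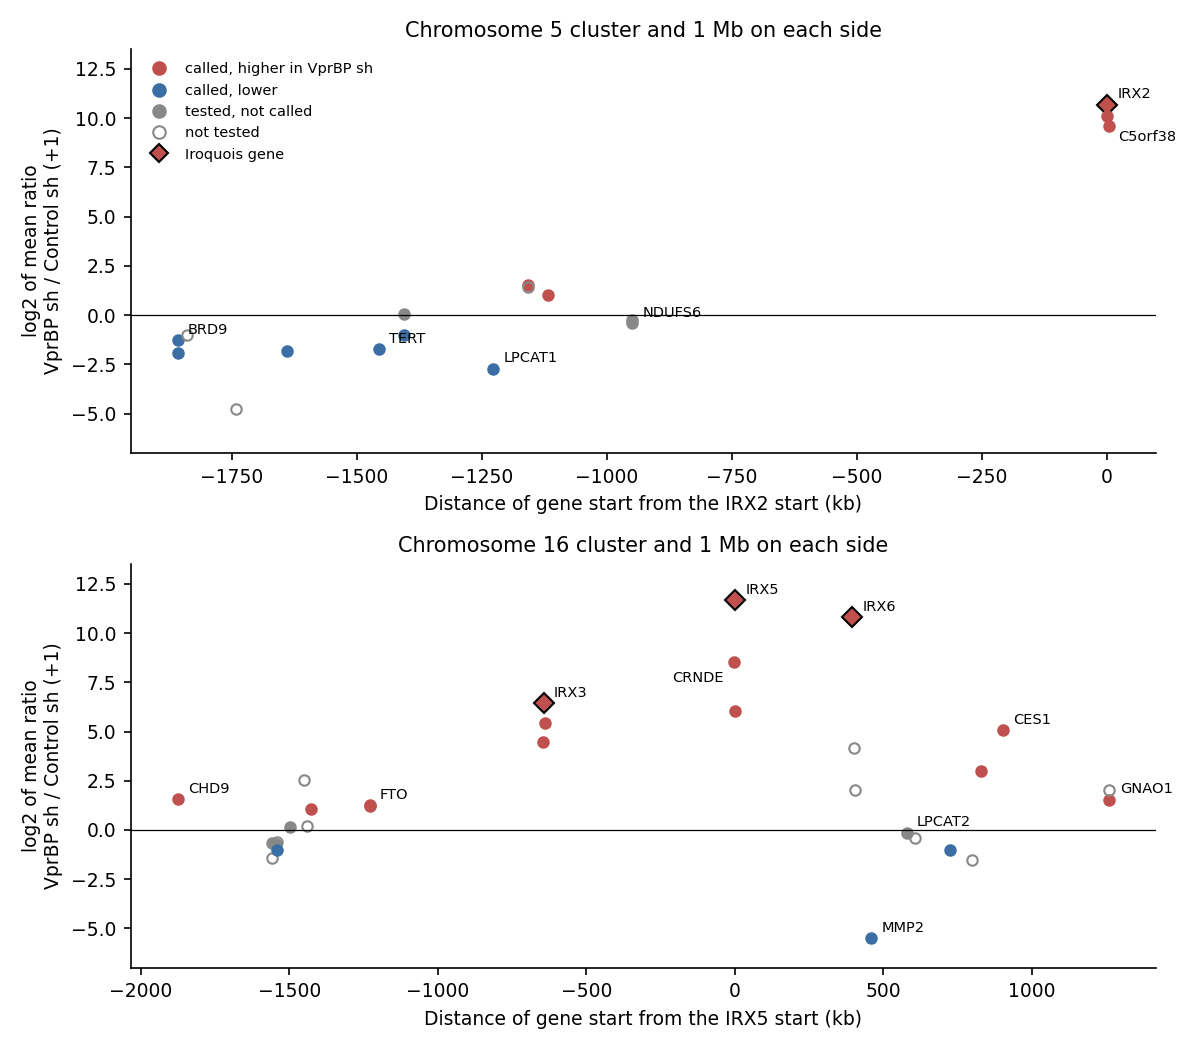
Log2 ratio of the group means of normalized counts plus 1, VprBP sh over Control sh, for each row within 1 Mb of the chromosome 5 cluster (upper panel) and the chromosome 16 cluster (lower panel), against the distance of the gene's start from that of IRX2 or IRX5 in kb. Diamonds are Iroquois genes, filled circles are tested rows coloured by their call and open circles are rows not tested. The 4 Iroquois genes, CRNDE and C5orf38 are among the highest points, CES1 is above some rows next to Iroquois genes, MMP2 is the lowest named row on chromosome 16, and most called rows on chromosome 5 other than those beside IRX2 lie below 0.

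Among the other TALE homeobox genes reported here, TGIF2 had the largest difference, a log2 ratio of -2.20, beside 6.48 for IRX3. PBX and MEIS proteins are cofactors of HOX proteins, PKNOX proteins bind PBX, and TGIF proteins are repressors in TGF-beta signalling. Of 11 such genes, 9 had a row and 8 were tested. Of these, PBX3 and MEIS1 were called higher and TGIF2 was called lower in VprBP sh, and 5 were not called, beside 46.4% of all genes tested. Their median log2 fold change was 0.17. MEIS3 and MKX had no row, and PKNOX2, with 2 to 4 counts in each sample, was not tested.

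TGIF2 counts were 866, 726 and 887 in the Control sh replicates and 179, 187 and 233 in those of VprBP sh, with a fitted log2 ratio of -2.20 (SE 0.13, edgeR adjusted p = 2.65e-07). It was called under each scaling tried. MEIS1 and PBX3 lay at the threshold, with log2 fold changes of 1.05 and 1.04, and were not called with TMM factors or in DESeq2, where the calls in the list fell from 3 to 1. Without Control sh replicate 2 the list also had 1 call. PBX2, TGIF1 and PKNOX1 had log2 fold changes of 0.17, 0.18 and -0.08 and were not called, and the sign of PKNOX1 changed with library size as the only scaling.

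Genes known to act with Iroquois proteins were read out as well. GATA3 and TRPS1 are zinc finger factors known to bind IRX5 in the developing face, VDR and RXRA are nuclear receptors known to form a complex with IRX4 in the heart, and ARID5B is known as a repressor of IRX3 and IRX5 in fat cell precursors. All 5 were called, 4 higher and 1 lower in VprBP sh, beside 46.4% of all genes tested, 24.5% higher and 22.0% lower. GATA3 and TRPS1 passed the filter on low counts through VprBP sh alone, so nothing is read from this count.

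The factors known to bind IRX5 were near 0 in Control sh, as IRX5 was. GATA3 counts were 7, 1 and 0 in the Control sh replicates and 1580, 1334 and 1873 in those of VprBP sh, with a fitted log2 ratio of 9.02 (SE 0.38, edgeR adjusted p = 3.52e-08). TRPS1 counts were 0, 1 and 0 in the Control sh replicates and 1637, 1651 and 2339 in those of VprBP sh. The ratio of the TRPS1 counts was 5049, with a 95% exact counting interval of 906 to 199442, and the gene was called (edgeR adjusted p = 1.07e-09). Both GATA3 and TRPS1 passed the filter on low counts through VprBP sh alone, so they had to differ and nothing is read from these p.

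VDR rose by 1.83 on the log2 scale (SE 0.10, edgeR adjusted p = 2.47e-07), from 721 ± 36.1 to 2555 ± 293 normalized counts (SD, n = 3). RXRA fell by 1.02 (SE 0.12, edgeR adjusted p = 3.69e-05), from 6522 ± 292 to 3211 ± 536 normalized counts (SD, n = 3), and did not reach 2-fold with library size as the only scaling, without Control sh replicate 1 or without VprBP sh replicate 1. ARID5B went from 472 ± 93.8 to 1517 ± 136 normalized counts (SD, n = 3), with a fitted log2 ratio of 1.69 (SE 0.14, edgeR adjusted p = 3.83e-06).

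Among 8 genes known as Iroquois targets in heart, fat or face, 3 had a row and 2 were tested. Both were called. GJA5 and GJA1 encode the connexins Cx40 and Cx43 and are known to respond to Irx3 in opposite directions in the cardiac conduction system. GJA5 counts were 11, 5 and 8 in the Control sh replicates and 1288, 973 and 1418 in those of VprBP sh, with a fitted log2 ratio of 7.10 (SE 0.26, edgeR adjusted p = 1.29e-08). GJA1 went from 1224, 1603 and 1941 counts in the Control sh replicates to 0 in each of VprBP sh, at least 571-fold lower than in Control sh (edgeR adjusted p = 2.78e-08). UCP1 had 0 to 4 counts in each sample and was not tested, and KCND2, CXCL12, PPARGC1A, MYH6 and MYH7 had no row. Over partners and targets together 7 of 7 genes tested were called, where 46.4% of all genes tested were. GATA3, TRPS1 and GJA1 had under 10 counts in every sample of a group and passed the filter on low counts through the other group alone. With 11, 5 and 8 counts in Control sh, GJA5 too passed through VprBP sh alone. These genes had to differ, and nothing is read from the count or from their p. Whether any of the 7 genes responds to Iroquois proteins in these cells was not tested.

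**Figure D4:**
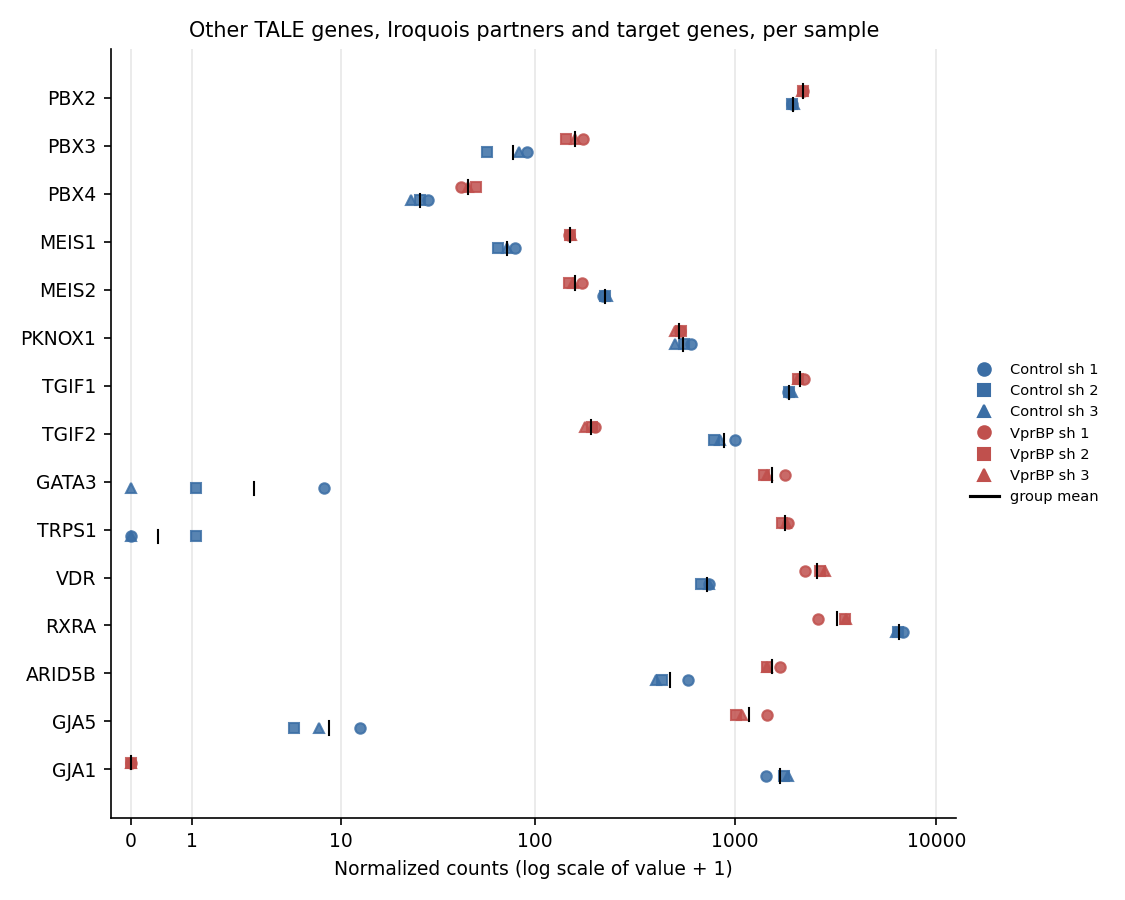
Normalized counts per sample of the tested TALE homeobox genes, of 5 known partners or regulators of Iroquois genes and of 2 known targets, on a logarithmic axis of the value plus 1, with Control sh in blue, VprBP sh in red and a black bar for each group mean. GATA3, TRPS1 and GJA5 lie at or below 12.7 in Control sh and above 1000 in VprBP sh, GJA1 lies at 0 in VprBP sh, and most TALE genes lie close together in both groups.

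The genes with the pattern most like that of IRX3 were found as those with the smallest Euclidean distance from it over the 6 samples on the scale of log2(normalized counts + 1), which weighs level and difference alike. They were CPAMD8 (distance 0.91), PIK3R3 (0.97), PRODH (0.98), CRACR2B (1.46) and ADGRL1 (1.57), and none of them is on chromosome 16. CPAMD8 counts were 47, 38 and 53 in the Control sh replicates and 4051, 5736 and 7820 in those of VprBP sh, close to the values of IRX3. The same 5 genes were found with a pseudocount of 10 and with TMM factors. For the other members the nearest genes were looked up after their values were seen. They were CDKN2A (0.29), SELENBP1 (0.31) and CX3CL1 (0.43) for IRX5, ATP13A5 (0.17), PAX7 (0.56) and PTCHD1 (0.71) for IRX2, and MLPH (1.16), CX3CL1 (1.19) and SOX11 (1.19) for IRX6. All of these were at 0 in each Control sh sample, as were 581 rows of the table. Among them only CX3CL1 shares a chromosome, 16, with the members whose pattern it is near. Of those 581 rows, 18 reached a VprBP sh mean of 1000 normalized counts, and IRX2, IRX5 and C5orf38 are among the 18.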

How the data were processed

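RNA-seq was measured in 3 Control sh and 3 VprBP sh samples, grouped and numbered by their titles. The authors aligned reads to hg38 with STAR, per the paper's methods, quantified genes in Partek Flow and deposited estimated counts per gene that are neither scaled nor pooled. These were rounded to whole counts. The Iroquois genes and the other gene lists were chosen with earlier results of these data known.

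Groups were compared with edgeR 4.0.16 (R 4.3.3), its quasi-likelihood test, upper quartile factors (0.75), its filter on low counts (minimum 10) and Benjamini-Hochberg adjustment over 16756 genes, in place of the Gene Specific Algorithm of Partek Flow. The SE of a fit was taken as the log2 ratio over the square root of F. Counts were scaled to the mean effective library size. A fold against a group at 0 was computed against 3 counts per library (2.30 to 3.48 normalized counts). Intervals and floors cover counting error only. Coordinates are those of the table, and 21460 of its 21494 IDs matched GENCODE 44, which gave exon lengths.

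Named were the members, rows within 1 Mb of the clusters, TALE genes, known partners and targets, marker genes, DCAF1 and the 5 genes nearest to the most abundant member. The alternatives were TMM factors, library size alone, DESeq2 1.42.0, limma-voom (limma 3.58.1), other filters, a replicate block and leaving out each sample. Summing replicates 2 and 3 was chosen after the data were seen. Tests were tried on simulated data. Some genes of these lists are not reported here.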

Additional observations from a re-analysis of the deposited data

How the results depend on the processing

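The 4 Iroquois genes with a row were called as higher under each alternative that tested them, and the log2 fold change of IRX3 ranged from 6.35 to 6.70. The family was chosen on this comparison, and IRX2, IRX5 and IRX6 pass the filter on low counts through VprBP sh alone. These calls are therefore a description and lend no support. The fitted value of IRX6 ranged from 11.64 to 14.33, with 12.36 as fitted on all samples and 14.33 without Control sh replicate 1, which holds its only count in Control sh. Those of IRX2 and IRX5, at 0 in Control sh, ranged from 11.59 to 14.20 and from 12.58 to 15.20 and depend on the prior count. Requiring 10 counts in every sample removes genes that are off in a group. Called were then 1 of 1 Iroquois gene tested, 3 of 3 partner and target genes, 4 of 9 marker genes and 4690 of 13103 genes in all. The calls among TALE genes fell from 3 to 1 with TMM factors and to 1 in DESeq2, and ran from 1 to 3 when each sample was left out. For DCAF1 the log2 fold change was -0.37 with library size alone and -0.46 with replicates 2 and 3 of each group summed, both above the 0.05 threshold (edgeR adjusted p = 0.0851 and 0.0839), and the cause was not tested. The median log2 ratio over the genes tested was 0.08 as reported, -0.01 with TMM and 0.29 with library size alone. Samples sharing a replicate number deviated from their group means with correlations of -0.145, -0.030 and -0.106, so no positive pairing by number was seen. With 3 samples per group, and replicate 1 apart from the others in both, these values cannot exclude a pairing. With the replicate number as a block, 7686 genes, 4 Iroquois genes, 23 neighbours, 3 TALE genes, 7 partner and target genes and 7 marker genes were called, and DCAF1 was at -0.60. Neighbours called ranged from 22 to 26 when each sample was left out. At this depth, values of 3 counts or fewer set no level.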
